A study of Mus musculus with 2 samples.

Results

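Among 9917 sorted cells of mouse embryos, 233 held RNA of Runx1, Gfi1 or Hlf together with RNA of an endothelial gene, 138 in the control library and 95 in the mutant library. A cell was taken where it had at least 1 unique molecule (UMI, an RNA molecule counted once) of these 3 transcription factor genes and at least 1 UMI of Cdh5 or Pecam1. It was left out where 2 or more of the 6 blood genes Coro1a, Laptm5, Tyrobp, Fcer1g, Spi1 and Ptprc had a UMI. The comparison cells were the other cells of the same library with a Cdh5 or Pecam1 UMI and fewer than 2 blood genes, 5764 in the control and 2643 in the mutant, called other endothelial cells here. The control embryos were Mekk3 fl/fl and Mekk3 fl/+, and the mutant embryos were Mekk3 fl/- with Tie2Cre, all on C57BL/6J. Tie2Cre is active in endothelium and in the blood cells that come from it, so the floxed allele is a target in both lineages. The sample titles name day 9.5 of development for each group, and a separate stage entry names day 9.7 for the mutant. The dissected vessels were the dorsal aorta and the vitelline and umbilical arteries, and the cells were sorted as Ter119-negative, CD41 low or negative, and positive for CD31, CD144 and ESAM. Each group was 1 library of droplet-based 3′ RNA sequencing. The number of embryos behind each library is not given, and the control library joins both control genotypes.

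Hemogenic endothelium is the small set of endothelial cells in the wall of embryonic arteries that turns into blood stem and progenitor cells. Runx1 is the transcription factor required for that step, and its target Gfi1, a repressor, helps to silence the endothelial program as cells round up and leave the vessel wall. Hlf is a transcription factor of newly formed blood stem cells. Mekk3, encoded by Map3k3, is a kinase that acts in endothelium upstream of the shear-responsive factors Klf2 and Klf4.

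With 1 library per group there is no test between groups and no replicate error. All intervals below are exact intervals at 95% confidence for counting error only, and a ratio is called higher or lower where it lies past 1.5-fold. The Runx1/Gfi1/Hlf cells were deeper than the other endothelial cells, with a median of 12603 against 7714.5 UMIs in the control and 11048 against 6055 in the mutant. Levels are therefore given as CPM, the UMIs of a gene scaled to a fixed total over the summed cells. The libraries shared 5 cell barcodes, none of them in a Runx1/Gfi1/Hlf cell. Map3k3 (11:106084613-106155446, forward strand, GRCm38) had 20 UMIs or 11.1 CPM in the control Runx1/Gfi1/Hlf cells and 13 UMIs or 12.6 CPM in the mutant ones. The position of the counted 3′ end relative to the deleted part is not given in the sources used here, so this level checks no genotype. Because the cells were chosen by their RNA, comparisons of these cells with the other endothelial cells are descriptions of the chosen cells.

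Runx1 (16:92601466-92826149, reverse strand) supplied most of the selection. In the control, 89 cells held 106 Runx1 UMIs, 50 cells held 52 Hlf UMIs (11:90336536-90390895, reverse strand) and 8 cells held 13 Gfi1 UMIs (5:107716657-107726036, reverse strand). In the mutant, 54 cells held 57 Runx1 UMIs, 38 cells held 44 Hlf UMIs and 12 cells held 20 Gfi1 UMIs. The 3 genes were seldom detected in the same cell: 8 control and 7 mutant cells had more than 1 of them, and all 3 were present in 1 control and 2 mutant cells. A single UMI was the whole basis of selection for 120 of the 138 control cells and 83 of the 95 mutant cells. The remaining 18 control and 12 mutant cells had 2 to 6 UMIs of the 3 genes.

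The cells next to the bounds of the rule differed between libraries in number. Of the control cells with a UMI of the 3 genes and an endothelial UMI, 97 had none of the 6 blood genes and 41 had 1, both taken, while 28 had 2 and 87 had 3 or more, both left out. In the mutant the same counts were 70, 25, 3 and 5. On the endothelial side, 10 control and 14 mutant cells fell out with no Cdh5 or Pecam1 UMI, and 12 control and 13 mutant cells were just inside with 1.

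Endothelial genes outside the rule were at levels near those of the other endothelial cells. Of 18 such pan-endothelial genes, none was at 0, and their summed level was 4636 against 4910 CPM in the control and 4118 against 4699 CPM in the mutant. Cdh5 (8:104101625-104144511, forward strand), which encodes VE-cadherin and whose presence the rule itself fixes, was at 384 CPM in them against 424 CPM in the other endothelial cells of the control, and at 248 against 316 CPM in the mutant. The median log2 ratio of the 18 genes was -0.15 in the control and -0.30 in the mutant. Sox18, an endothelial transcription factor, was lower in the mutant cells at 45.6 against 83.3 CPM (ratio 0.547, 0.400 to 0.731), and Robo4, an endothelial guidance receptor, was lower in both libraries (ratios 0.516, 0.329 to 0.771, and 0.615, 0.387 to 0.931).

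The share of cells with a UMI of the 3 genes overlapped between endothelial cells and cells that lack both endothelial genes. It was 138 of 5902 cells or 2.34% (1.97% to 2.76%, Clopper-Pearson) in the control and 95 of 2738 or 3.47% (2.82% to 4.23%) in the mutant. In the cells without a Cdh5 or Pecam1 UMI it was 10 of 567 or 1.76% (0.849% to 3.22%) and 14 of 471 or 2.97% (1.63% to 4.94%), although these cells were shallower, with median depths of 3905 and 2694 UMIs. At 2500 UMIs per cell the shares were 0.796% (0.570% to 1.08%) against 0.548% (0.0664% to 1.97%) in the control and 1.54% (1.06% to 2.15%) against 2.34% (0.865% to 5.03%) in the mutant, so the order was not the same in both. Those cells are no clean negative group, since they still held the endothelial gene Emcn at 421 and 341 CPM. At this level a single UMI cannot be told from free RNA in the droplets, and neither share is read as expression or as a difference between the libraries. Cells with 2 or more UMIs of the 3 genes made up 0.305% of endothelial cells in the control and 0.438% in the mutant.

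Cells with RNA of several blood genes were present in both libraries and held the 3 genes at higher levels. Of the cells with 2 or more blood genes, 128 of 206 or 62.1% had a UMI of the 3 genes in the control and 9 of 33 or 27.3% in the mutant. Runx1 reached 115 CPM in those of the control and 77.0 CPM in those of the mutant. The ratio of endothelial to blood-cell UMIs was not the same for every gene of the control blood cells. Runx1 had 106 UMIs in endothelial cells and 415 in blood cells, Hlf 52 and 188, and Gfi1 13 and 78. The progenitor factor Myb had 26 and 260, and Lyz2, a lysozyme of macrophages, 14 and 249. Rac2, a GTPase of blood cells, had 2 and 272. The blood genes of the rule, whose endothelial counts the gate limits, ran from 2 and 321 for Tyrobp, a signaling adaptor, to 181 and 838 for Coro1a, an actin-binding protein. Spi1 lay between them with 34 and 537. In the mutant, with 33 blood cells, Runx1 had 57 and 30, Myb 3 and 16, Lyz2 4 and 68, and Rac2 1 and 3. Among the selected control cells, Spi1, the transcription factor PU.1 of myeloid cells, had 21 UMIs in 8 cells, and 17 of those UMIs lay in 7 of the 18 cells with 2 or more UMIs of the 3 genes. The selected mutant cells had 2 Spi1 UMIs in 1 cell. Of 18 myeloid genes outside the rule, 12 were at 0 in the selected control cells and 13 in the mutant ones, the macrophage genes Csf1r, Cx3cr1 and C1qa among them in both, and their summed level was 69.7 against 81.9 CPM in the other endothelial cells of the control and 61.1 against 72.1 CPM in the mutant. Lyz2 went the other way, with 9 UMIs in 5 selected control cells and 3 UMIs in the selected mutant cells. The 5764 other endothelial cells of the control had 5 Lyz2 UMIs, and the 2643 of the mutant had 1. Of the 9 control UMIs, 8 lay in 4 of the 18 cells with 2 or more UMIs of the 3 genes.

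Genes that mark blood progenitors and are nearly absent from endothelium were found in a minority of the selected cells. Over 18 such genes, each below 5 CPM in the other endothelial cells of both libraries, 44 of 138 control cells or 31.9% (24.2% to 40.4%) had a UMI of at least 1, against 661 of 5764 or 11.5%. In the mutant 33 of 95 or 34.7% (25.3% to 45.2%) did, against 310 of 2643 or 11.7%. At equal depth, with each cell thinned to 2500 UMIs, the shares were 14.5% against 3.70% in the control and 15.6% against 3.94% in the mutant. This set was drawn from the progenitor lists after the levels had been seen, and the bound on the other cells favors a difference. By gene, 5 of 8 control and 11 of 12 mutant cells with Gfi1 had at least 1 of the 18. The counts were 38 of 89 and 18 of 54 cells with Runx1, and 9 of 50 and 12 of 38 cells with Hlf. Among cells with a single UMI of the 3 genes, they were 1 of 4 and 5 of 5 for Gfi1. For Runx1 these were 24 of 72 and 13 of 48, and for Hlf 5 of 44 and 5 of 30. After thinning, the counts of these single-UMI cells were 1 of 4 and 3 of 5 for Gfi1. They were 7 of 67 and 3 of 45 for Runx1, and 0 of 42 and 2 of 29 for Hlf.

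**Figure D1:**
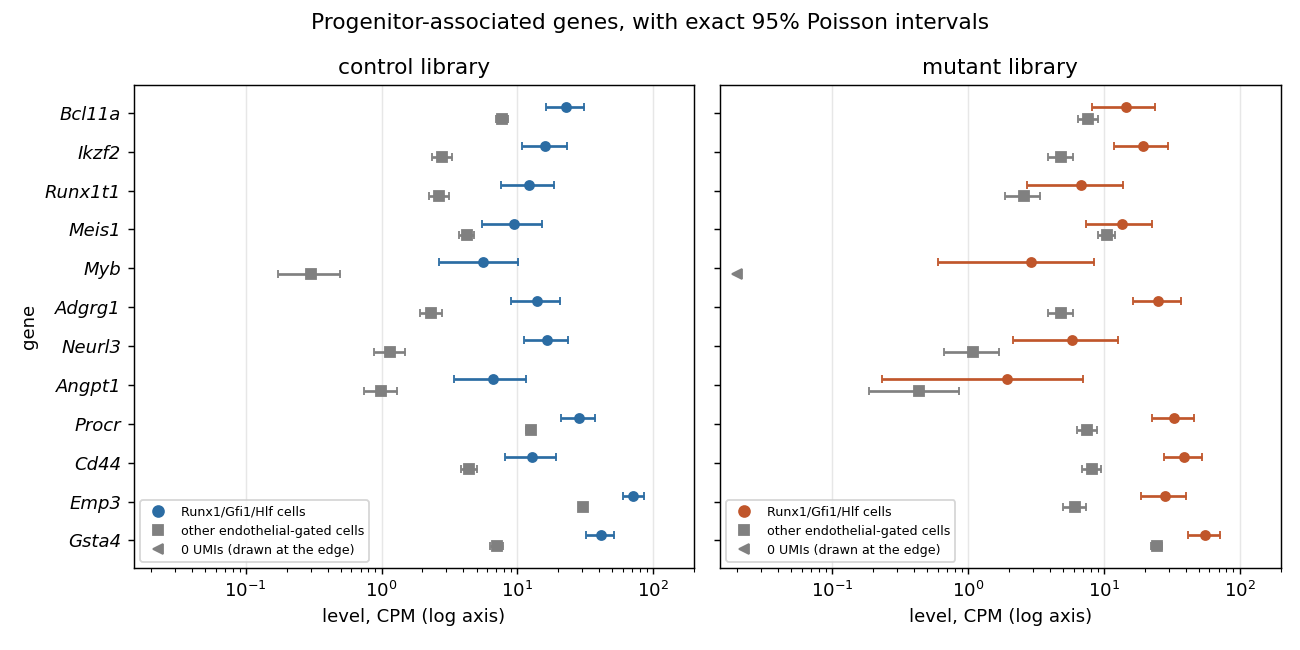
Levels of 12 progenitor-associated and leading genes in CPM (log axis) in Runx1/Gfi1/Hlf cells (colored circles) and other endothelial cells (gray squares), with exact Poisson intervals, control on the left and mutant on the right. Ikzf2 and Adgrg1 lie apart from the other cells in both libraries, Neurl3 is at 16.6 CPM in the control cells and 5.82 CPM in the mutant ones, and Myb has 0 UMIs in the other mutant cells.

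Transcription factors of the hemogenic program were unequally represented. Of 22 listed factors besides the 3 of the rule, 18 had a mean of at least 5 CPM in the control, and 4 were higher in the Runx1/Gfi1/Hlf cells and none lower, with a median log2 ratio of 0.27. Over all 8462 genes at that level, 2.51% were higher and 4.09% lower, with a median of 0.0013. In the mutant, 3 of 17 factors were higher and none lower, with a median of 0.021, and of all 8440 genes 7.44% were higher and 10.6% lower. The level bound takes in genes through the selected cells: Ikzf2, Runx1t1 and Meis1 in the control and Ikzf2 in the mutant were under 5 CPM in the other cells, so they could not be counted as lower, and neither these counts nor the medians support a direction of the list.

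Ikzf2, which encodes the zinc finger factor Helios, was at 16.0 against 2.79 CPM in the control (ratio 5.75, 3.72 to 8.61) and at 19.4 against 4.81 CPM in the mutant (4.03, 2.35 to 6.60). Bcl11a, a repressor of embryonic globin genes, was at 22.7 against 7.74 CPM in the control (2.93, 2.07 to 4.05) and 14.5 against 7.71 CPM in the mutant (1.89, 1.03 to 3.22). Runx1t1, a corepressor, had 12.2 against 2.64 CPM in the control (4.61, 2.80 to 7.27) and 6.79 against 2.57 CPM in the mutant (2.64, 1.01 to 5.88), where its mean was under 5 CPM. These 3 genes were higher in both libraries, with mutant intervals of Bcl11a and Runx1t1 that reach almost to 1. Meis1, a homeobox factor of blood stem cells, was at 9.40 against 4.23 CPM in the control (2.22, 1.27 to 3.64) and at 13.6 against 10.5 CPM in the mutant, a ratio of 1.29. Myb, needed for definitive blood formation, had 10 UMIs in 6 control cells against 0.304 CPM in the other cells (18.2, 7.39 to 42.7), and 3 UMIs in 1 mutant cell.

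Factors that endothelium itself uses stayed within 1.5-fold in the control, Gata2 alone passing it in the mutant. Gata2, an early factor of the hemogenic network, was at 16.6 against 13.9 CPM in the control and 11.6 against 7.11 CPM in the mutant (ratios 1.20 and 1.64, the latter 0.824 to 2.96). Lmo2, a bridging protein of the same network, was at 334 against 278 CPM in the control and at 119 against 160 CPM in the mutant. For Lyl1, Tal1, Fli1, Erg, Mecom, Cbfb, Etv6, Hhex, Mycn, Gata3, Zfpm1 and Sox17 the ratios ran from 0.808 to 1.45 in the control and from 0.767 to 1.40 in the mutant. Gfi1b, a factor of the erythroid and megakaryocyte lineages, and Ikzf1, a lymphoid factor, had 0 UMIs in the selected cells of both libraries, which allows up to 1.66 CPM (control) and 2.91 CPM (mutant), and Nfe2, a factor of megakaryocytes, had 0 and 1 UMI.

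Surface and signaling genes of blood progenitors stood higher for a few members. Of 24 listed genes, 12 were measured in the control with 4 higher and none lower, and 13 in the mutant with 5 higher and 4 lower, beside 2.51% higher and 4.09% lower of all genes in the control and 7.44% and 10.6% in the mutant. Adgrg1, Cd44 and Neurl3 in the control and Adgrg1, Dnmt3b and Itgb3 in the mutant passed the level bound only through the selected cells, and Il3ra and Kcnk5, both lower in the mutant, only through the other cells, so the counts and medians support no direction of the list. The medians were 0.11 and -0.21 on the log2 scale. The control median became -0.014 under TMM scaling, a method that trims extreme genes, and the mutant median became 0.34 with the other cells weighted to the depth of the selected ones. Adgrg1 (8:94974751-95014217, forward strand), an adhesion receptor of blood stem cells, had 25 UMIs in 15 control cells, 13.8 against 2.32 CPM (5.97, 3.72 to 9.24), and 26 UMIs in 16 mutant cells, 25.2 against 4.81 CPM (5.24, 3.25 to 8.19). Procr (2:155751117-155755471, forward strand), the endothelial protein C receptor, had 51 UMIs in 26 control cells, 28.2 against 12.5 CPM (2.25, 1.66 to 2.99), and 34 UMIs in 19 mutant cells, 33.0 against 7.55 CPM (4.37, 2.91 to 6.40). Cd44, a hyaluronan receptor, was at 12.7 against 4.40 CPM in the control (2.89, 1.80 to 4.44) and at 38.8 against 8.20 CPM in the mutant (4.73, 3.25 to 6.74). All 3 receptors were higher in each library with intervals above 1. Of the 40 Cd44 UMIs of the mutant cells, 24 lay in cells with RNA of smooth muscle genes (the gate is given with those genes below), and outside them Cd44 was at 18.2 CPM (10.4 to 29.5) in the mutant and 7.89 CPM (4.20 to 13.5) in the control.

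Neurl3 (1:36264597-36274679, reverse strand), a ubiquitin ligase used as a marker of hemogenic endothelium, had the largest control ratio among the genes of this list with a mean of at least 5 CPM. It had 30 UMIs in 16 control cells, 16.6 against 1.16 CPM (14.3, 8.94 to 22.6), and 6 UMIs in 5 mutant cells, 5.82 against 1.09 CPM (5.32, 1.75 to 13.7). The mutant cells thus held less of it than the control cells (ratio 0.351, 0.119 to 0.856), while the interval of the other endothelial cells included 1 (0.945, 0.540 to 1.59). Angpt1, a ligand of the receptor Tek, was at 6.64 against 0.987 CPM in the control (6.73, 3.27 to 12.8) and had 2 UMIs in 1 mutant cell. Kit, the stem cell factor receptor, had ratios near 1, at 15.5 against 14.7 CPM in the control (1.06, 0.697 to 1.54) and 47.5 against 55.4 CPM in the mutant (0.857, 0.630 to 1.14). Cd34, a sialomucin of endothelium and progenitors, was at 366 against 396 CPM in the control and lower in the mutant at 153 against 236 CPM (0.648, 0.550 to 0.760). Spn, the leukosialin CD43 of later progenitors, had 3 UMIs in the control cells and 0 in the mutant ones.

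Few other genes set the control cells apart. Of 4855 genes with a mean of at least 20 CPM, 43 were higher (0.886%) and 43 lower (0.886%). In simulated Poisson counts for this comparison, 0.0641% of 4683 unchanged genes were higher and 0.448% lower from counting error alone. TMM scaling moved every log2 ratio of this comparison by -0.12 and gave 20 higher and 102 lower, while median-of-ratios scaling gave 43 and 29. Gsta4, a glutathione transferase that clears products of lipid peroxidation, was the gene furthest from 1 on the higher side, at 40.9 against 7.02 CPM (5.83, 4.48 to 7.5), with 74 UMIs in 27 cells. It was also higher in the mutant cells, at 55.3 against 24.6 CPM (2.25, 1.68 to 2.97). Emp3, a membrane protein, was at 71.4 against 30.2 CPM in the control (2.36, 1.96 to 2.83) and 28.1 against 6.12 CPM in the mutant (4.59, 2.94 to 6.96). Cebpb, a leucine zipper transcription factor, was at 58.6 against 32.5 CPM (1.81, 1.47 to 2.20) and 206 against 66.0 CPM (3.11, 2.68 to 3.60). Ctsh, a lysosomal protease, had ratios of 1.90 and 2.36, and Aes, a corepressor of the Groucho family, 1.95 and 1.84. Apoe, Fos, Nts, Pdcd4 and Tmem100 were also higher in the control cells, with ratios of 1.75 to 1.95, and had ratios of 1.05 to 1.45 in the mutant.

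Mcam, Tmem255a, Nid2 and Pxdn were among the lower genes. In the control, Mcam, an adhesion molecule of vessels, was at 18.3 against 41.5 CPM (0.440, 0.302 to 0.619), and Tmem255a, a membrane protein, at 39.8 against 75.8 CPM (0.525, 0.410 to 0.663). Tmem255a was lower by nearly the same ratio in the mutant, 73.7 against 140 CPM (0.526, 0.413 to 0.661). The basement membrane genes Nid2 and Pxdn had ratios of 0.543 and 0.620 in the control and 0.583 and 0.480 in the mutant. With the other cells weighted to the depth of the selected cells, Nid2 no longer passed 1.5-fold, at 0.765 and 0.815, and Pxdn was at 0.796 and 0.624. In the control cells with 2 or more UMIs of the 3 genes, the log2 ratio of Pxdn was 0.024. Other lower genes of the control were Igfbp3, Efna1, Lcp1, Cs and Get4, with ratios of 0.580 to 0.618, and Get4 had a log2 ratio of 0.092 in the cells with 2 or more UMIs. Hspg2, Maged1 and Plxnd1 had ratios of 0.690 to 0.721. The mutant cells had less of Slc7a5, an amino acid transporter (0.400, 0.236 to 0.636), Slc12a2, an ion cotransporter (0.436, 0.278 to 0.653), and Fam64a, a cell cycle regulator (0.471, 0.306 to 0.694), and of Sema6d, St8sia4, Igf2r, Ecm1, Sox9 and Trp53i11, with ratios of 0.439 to 0.504. After thinning to 2500 UMIs, the log2 ratio of Slc7a5 was 0.11. The transcript AY036118 was at 8.72 against 35.7 CPM in the mutant.

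Cells with 2 or more UMIs of Runx1, Gfi1 and Hlf held several progenitor genes at higher levels than cells with 1, but not all. Lmo2 was lower in them, at 227 against 347 CPM in the control and 75 against 127 CPM in the mutant. Gata2 was at 20.6 (5.62 to 52.8) against 16.1 CPM and at 13.6 (1.65 to 49.3) against 11.3 CPM. Of the genes at higher levels, the more numerous cells with 1 UMI still held part of the RNA. They had 33 of 51 Procr, 15 of 30 Neurl3, 8 of 29 Ikzf2 and 7 of 25 Adgrg1 UMIs in the control. In the mutant they had 17 of 34 Procr and 12 of 26 Adgrg1 UMIs. Among the 18 low-background genes, at least 1 was found in 14 of these 18 control cells or 77.8% (52.4% to 93.6%) and 10 of 12 mutant cells or 83.3% (51.6% to 97.9%), against 30 of 120 or 25.0% and 23 of 83 or 27.7% of the cells with 1 UMI. More than 1 different gene was found in 13 of 18 and 7 of 12, against 10 of 120 and 4 of 83. Blood genes went with this split in the control. Myb, which belongs to the low-background genes, was found in 6 of the 18 cells and 0 of the 120. Spi1, a blood gene of the rule, was found in 7 of the 18 and 1 of the 120. Depth did not run the same way in both libraries, since the median was 9361 UMIs in the control cells with 2 or more UMIs and 13111 in those with 1, and 13647.5 and 10625 UMIs in the mutant.

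Adgrg1 was at 92.8 CPM (55.0 to 147) in the control cells with 2 or more UMIs and at 4.34 CPM (1.74 to 8.94) in those with 1, and at 95.5 (52.2 to 160) and 13.6 CPM in the mutant. Ikzf2 was at 108 CPM (67.1 to 166) against 4.96 CPM in the control and at 109 CPM (62.4 to 177) against 4.52 CPM in the mutant. Procr was at 92.8 against 20.4 CPM in the control and at 116 against 19.2 CPM in the mutant. In the cells with 1 UMI, the interval of Ikzf2 included the level of the other endothelial cells in both libraries (2.14 to 9.77 around 2.79 CPM, and 1.23 to 11.6 around 4.81 CPM), as did that of Adgrg1 in the control (1.74 to 8.94 around 2.32 CPM). Above that level lay Procr in both (14.1 to 28.7 against 12.5 CPM, and 11.2 to 30.8 against 7.55 CPM) and Adgrg1 in the mutant (7.01 to 23.7 against 4.81 CPM). Bcl11a behaved alike, at 98.0 against 13.6 CPM and 68.2 against 5.65 CPM. Gsta4 was at 237 against 17.3 CPM in the control and at 102 against 47.5 CPM in the mutant. Gja4, a connexin of arterial endothelium, was at 335 CPM (259 to 427) against 101 CPM in the control and at 191 CPM (127 to 276) against 44.1 CPM in the mutant.

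**Figure D2:**
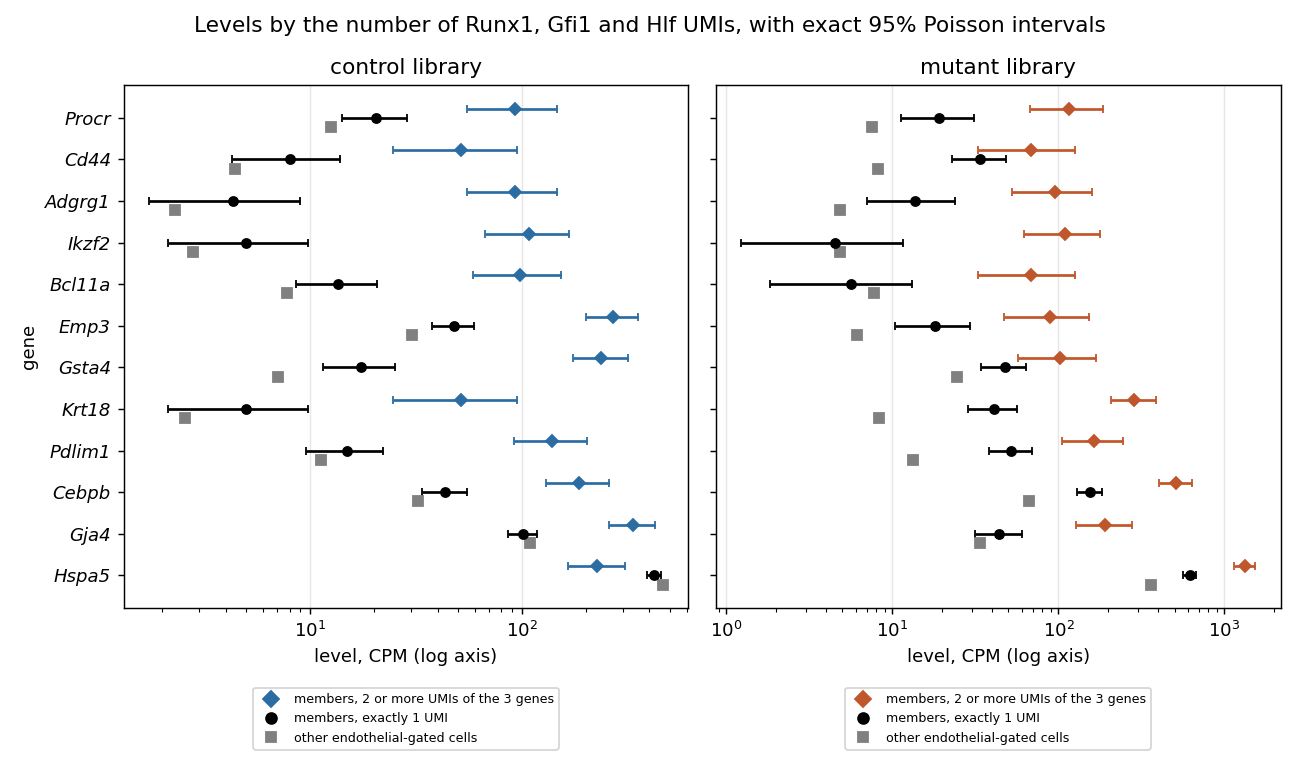
Levels of 12 genes in CPM (log axis) in cells with 2 or more UMIs of Runx1, Gfi1 and Hlf (colored diamonds), cells with exactly 1 (black circles) and other endothelial cells (gray squares), with exact Poisson intervals, control on the left and mutant on the right. Adgrg1 and Ikzf2 are above 90 CPM in the diamonds of both libraries and under 14 CPM in the circles, while Hspa5 is lower in the control diamonds (227 CPM) than in the circles (419 CPM) and higher in the mutant ones (1323 and 616 CPM).

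The Gfi1 cells were few, 8 in the control and 12 in the mutant. Procr was detected in 4 of the 8 and 9 of the 12, Gja4 in 5 and 9, and Krt18, a keratin, in 2 and 9. The 8 control cells held Gja4 at 620 CPM and Procr at 129 CPM. The 12 mutant cells held Gja4 at 245 CPM, Procr at 168 CPM and Krt18 at 214 CPM. Acta2, smooth muscle actin, was in none of the control cells and 5 of the mutant ones. Of the control endothelial cells with Gja4 or Gja5, 5 of 1521 or 0.329% (0.107% to 0.765%) had Gfi1. Without either connexin, 3 of 4381 or 0.0685% (0.0141% to 0.2%) did. The mutant shares were 9 of 341 or 2.64% (1.21% to 4.95%) and 3 of 2397 or 0.125% (0.0258% to 0.365%). After thinning, the control shares were 1 of 1121 or 0.0892% (0.00226% to 0.496%) and 3 of 3901 or 0.0769% (0.0159% to 0.225%). The mutant shares were then 3 of 247 or 1.21% (0.251% to 3.51%) and 1 of 1900 or 0.0526% (0.00133% to 0.293%). Only in the mutant without thinning did the intervals lie apart.

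RNA of the arterial connexin genes Gja4 or Gja5 was more frequent in the selected than in the other cells of the mutant. In the control, 40 of 138 selected cells or 29.0% (21.6% to 37.3%) had such a UMI, against 25.7% of the other cells. In the mutant, 27 of 95 or 28.4% (19.6% to 38.6%) had one, against 314 of 2643 or 11.9% (10.7% to 13.2%). At 2500 UMIs per cell, the shares were 16.8% against 14.9% and 15.6% (8.77% to 24.7%) against 6.51% (5.49% to 7.67%). Seen from the other side at that depth, 13 of 247 or 5.26% (2.83% to 8.83%) of arterial mutant cells had a UMI of the 3 genes and 1.05% (0.644% to 1.62%) of the rest, while the control shares were 1.16% (0.619% to 1.97%) and 0.692% (0.457% to 1.01%).

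**Figure D3:**
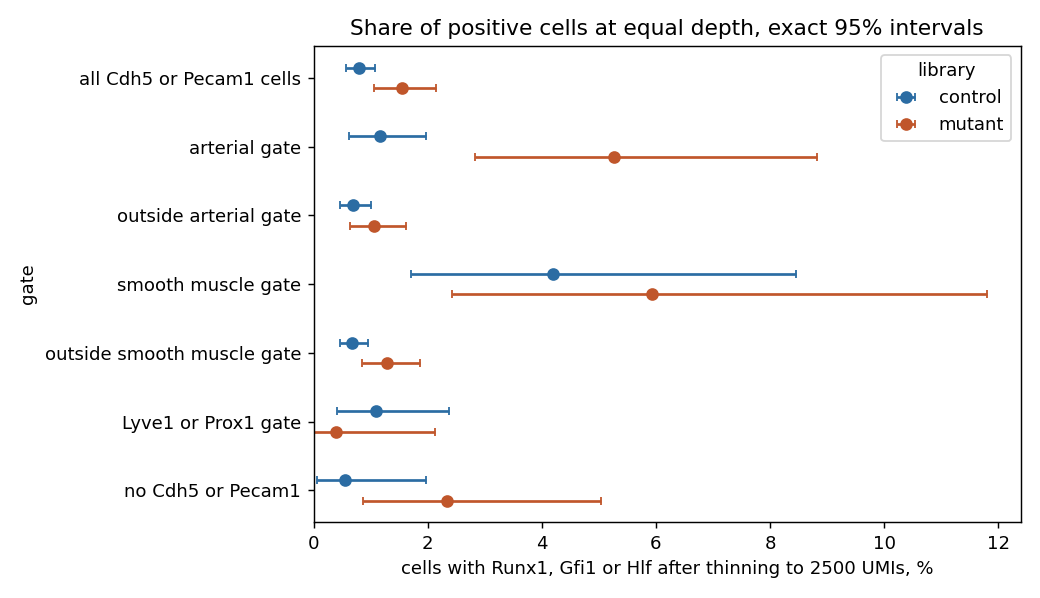
Share of cells with a UMI of Runx1, Gfi1 or Hlf after thinning each cell to 2500 UMIs, in percent, by gate and library, with exact intervals; gates are UMIs of Gja4 or Gja5 (arterial), at least 2 of 5 smooth muscle genes, or Lyve1 or Prox1. Mutant cells of the arterial gate reach 5.26%, and cells with no Cdh5 or Pecam1 UMI overlap with the endothelial cells in both libraries.

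The arterial genes as a list did not follow Gja4. Of 17 measured in the control, 1 was higher and 4 lower (median log2 ratio -0.17), and of 16 in the mutant 1 was higher and 5 lower (-0.40), beside 2.51% higher and 4.09% lower of all genes in the control and 7.44% and 10.6% in the mutant. With the other cells weighted to the depth of the selected cells, these medians became 0.13 and 0.019. Gja4 was at 126 against 110 CPM in the control (1.15, 1.0 to 1.31) and at 64.9 against 33.6 CPM in the mutant (1.93, 1.48 to 2.49). Under the same weighting the ratios of Gja4 became 1.71 and 3.65. Notch4, an endothelial Notch receptor, was lower in both libraries (0.471 and 0.524; log2 ratio 0.026 in the mutant after thinning), and Nrp1, a coreceptor of VEGF and semaphorins, was at 256 against 233 CPM in the control and 152 against 225 CPM in the mutant. The venous and lymphatic list had no gene past 1.5-fold in the control and 1 higher and 2 lower of 10 in the mutant, where 7.44% and 10.6% of all genes were. The higher one was Lyve1, a hyaluronan receptor of lymphatic and early venous endothelium, at 20.4 against 10.3 CPM, with a log2 ratio of -1.60 in the cells with 2 or more UMIs of the 3 genes.

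More genes set the mutant cells apart from their library than the control cells from theirs. Of 4621 genes, 188 were higher (4.07%) and 200 lower (4.33%), with fewer selected cells behind each value. Krt18 was at 75.6 against 8.26 CPM (9.16, 6.88 to 12.1) in 23 cells, and at 9.96 against 2.56 CPM in the control (3.89, 2.24 to 6.38). Of the 10 genes of epithelium and visceral endoderm, 7 were at 0 in the selected cells of each library, and Krt8, the usual partner of Krt18, had 0 UMIs in the control cells and 3 in the mutant ones. Pdlim1, a protein of the actin cytoskeleton, was at 67.9 against 13.3 CPM (5.09, 3.84 to 6.66), and at 28.2 against 11.3 CPM in the control (2.50, 1.84 to 3.32). Fxyd7, a regulator of the sodium pump, was at 55.3 against 10.6 CPM (5.24, 3.83 to 7.07) and had 3 UMIs in the control cells. Rragd, a GTPase of lysosomal nutrient sensing, was at 35.9 against 9.62 CPM (3.73, 2.54 to 5.34) and had 2 UMIs there.

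Hspa5, Manf, Vimp, Sdf2l1 and Derl3 had higher ratios in the mutant cells than in the control ones. Hspa5, the main chaperone of the endoplasmic reticulum, was at 716 against 361 CPM in the mutant (1.98, 1.83 to 2.14) and at 398 against 462 CPM in the control (0.862, 0.800 to 0.929). Manf, a secreted factor of the stress response of this compartment, was at 611 against 298 CPM (2.05, 1.89 to 2.23) and 410 against 461 CPM (0.889, 0.825 to 0.956). The ratio of the mutant ratio to the control ratio was 2.30 (2.07 to 2.56) for Hspa5 and 2.31 (2.07 to 2.58) for Manf. Vimp (selenoprotein S) and Sdf2l1, which act in the same compartment, gave 2.29 and 2.27. Derl3, a gene of protein disposal there, was at 39.7 against 6.89 CPM in the mutant (5.77, 3.95 to 8.27), in 18 cells, and had 0 UMIs in the selected control cells, which allows up to 1.66 CPM. No list of this compartment had been set, and these genes were taken by their ranks alone.

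**Figure D4:**
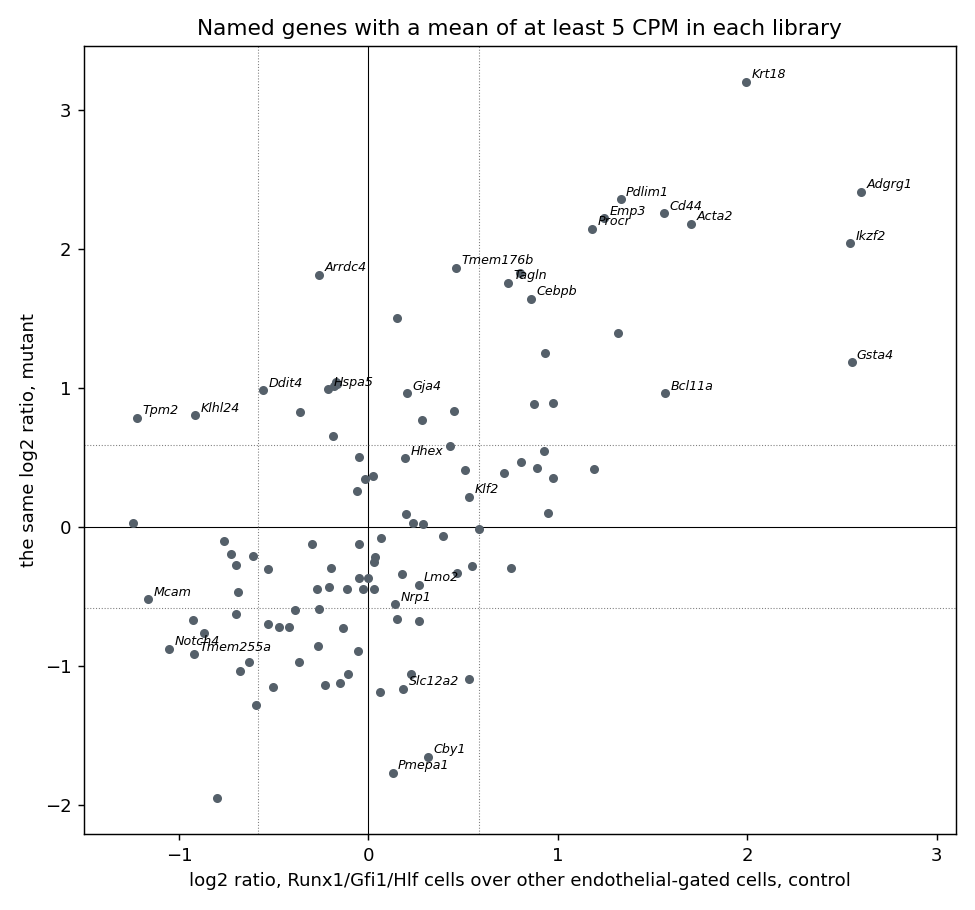
Log2 ratio of Runx1/Gfi1/Hlf cells over other endothelial cells in the control (horizontal axis) and in the mutant (vertical axis) for the named genes with a mean of at least 5 CPM in each library; dotted lines mark 1.5-fold. Krt18, Adgrg1, Ikzf2, Cd44 and Procr lie high on both axes, while Hspa5, Arrdc4 and Ddit4 lie high on the mutant axis alone.

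Other genes with unequal ratios in the 2 libraries were Arrdc4, an arrestin-domain protein (3.48 in the mutant and 0.797 in the control, ratio of ratios 4.20, 2.12 to 8.30), and Tmem176b, a membrane protein (3.62 and 1.37, 2.64-fold apart). On the low side, Cby1, a Wnt pathway antagonist, was at 7.75 against 25.9 CPM in the mutant and 46.5 against 37.6 CPM in the control (ratio of ratios 0.255, 0.125 to 0.521). Lmo2 had a ratio of ratios of 0.622 (0.511 to 0.758), Nrp1 of 0.615, Gsta4 of 0.387 and Slc12a2 of 0.392. Pmepa1, a feedback inhibitor of TGF-beta signaling, had 0.268, and Acat1, a mitochondrial thiolase, 0.518. These intervals come from the counts of 1 library per group, and their size against the spread between embryos was not tested.

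Smooth muscle RNA went with selection and sat in few cells. Acta2 was at 45.4 against 14 CPM in the control (3.24, 2.55 to 4.07) and 222 against 49.2 CPM in the mutant (4.52, 3.89 to 5.23), and 74.2% of its 229 mutant UMIs lay in 3 cells. Tagln, an actin-binding protein of smooth muscle, was at 25.4 against 15.4 CPM (1.65) and 317 against 94.1 CPM (3.37). Leaving out the 3 cells with most UMIs of the gene in each population gave lower levels. In the control, Acta2 was then at 17.6 against 11.3 CPM and Tagln at 13.6 against 13.4 CPM. In the mutant they were at 58.9 against 36 CPM and 120 against 75.2 CPM. Cells with at least 2 of the 5 genes Acta2, Tagln, Cnn1, Myl9 and Actc1 made up 9.42% of the selected cells against 3.05% of the others in the control, and 15.8% against 4.54% in the mutant. At 2500 UMIs per cell these shares were 2.29% against 1.29% and 11.1% (5.46% to 19.5%) against 3.21% (2.49% to 4.06%). The summed level of the 16 listed genes was 442 against 398 CPM and 1104 against 586 CPM, while the median cell was at 333 against 330 CPM and 376 against 359 CPM. Outside that gate, Procr was at 22.5 CPM in the 125 control cells and 21.6 CPM in the 80 mutant cells, and Krt18 at 56.8 CPM and Hspa5 at 634 CPM in the mutant cells. The part of smooth muscle cells or of droplets with more than 1 cell in these results was not tested.

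The sums of red cell RNA differed through few cells. The 13 erythroid genes summed to 73.0 against 845 CPM in the control and 71.7 against 651 CPM in the mutant, and Hbb-y, an embryonic globin, was at 19.4 against 435 CPM and 6.79 against 333 CPM. In the other endothelial cells, 3 cells held 77.9% of the Hbb-y UMIs of the control and 99.2% of those of the mutant, and the median cell had 0 in the selected and the other cells of both. Leaving out the 3 cells with most Hbb-y UMIs in each population, a choice made after seeing the data, gave 10.9 against 96.2 CPM and 1.02 against 2.63 CPM, the selected mutant cells then holding 1 UMI. Mesenchymal, neural, megakaryocyte and endocardial genes showed no common direction, with summed levels of 27.7 against 24.5, 40.4 against 49.8, 11.1 against 10.1 and 379 against 374 CPM in the control, and 27.1 against 15.6, 29.1 against 55.2, 13.6 against 8.47 and 218 against 245 CPM in the mutant. Of these lists, 6 of 14, 9 of 14, 8 of 10 and 2 of 10 genes were at 0 in the selected control cells.

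Many genes differed between the selected cells of the libraries, as they did between the other endothelial cells. Of 4755 genes, 704 were higher (14.8%) and 1203 lower (25.3%) in the mutant Runx1/Gfi1/Hlf cells than in the control ones. Leaving mitochondrial, ribosomal protein and hemoglobin genes out of the totals moved all log2 ratios by 0.12 and gave 1181 and 1182, TMM scaling moved them by 0.16 and gave 959 and 831, and median-of-ratios scaling moved them by 0.10 and gave 881 and 967. The median log2 ratio over genes of this level was -0.14 in the selected cells and -0.14 in the other endothelial cells. At the mean of 5 CPM used for the lists, 18% of 8481 genes were higher and 27.3% lower, and the list counts that follow stand beside these shares.

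All 25 measured genes of hypoxia and glycolysis were higher in the mutant cells, with a median log2 ratio of 2.26, against 2.58 in the other endothelial cells. The level bound took in genes through the mutant cells, since within the control only 21 of the list reached it. Genes under 5 CPM in the control cells could not be counted as lower, so the bound favors this count and this median. Slc2a3, a glucose transporter, was at 429 CPM against 6.08 CPM in the control cells (70.6, 39.1 to 142), and at a ratio of 85.9 in the other cells. Ndrg1, a gene induced by low oxygen, was at 61.1 against 4.43 CPM. Within the mutant, Slc2a3 and Ndrg1 were higher in the selected than in the other cells by 1.65 (1.49 to 1.82) and 1.53 (1.16 to 1.98). Higd1a, a mitochondrial protein of the hypoxia response, was at 785 against 258 CPM between the libraries.

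Most genes that respond to flow were lower. Of 13 measured, 8 were lower and 4 higher in the mutant cells, with a median of -1.06, against -0.98 in the other cells. Klf2, a shear-induced transcription factor, was at 148 against 604 CPM (0.246, 0.206 to 0.291; 0.307 in the other cells), and Klf4, its relative, at 45.6 against 85.2 CPM (0.535, 0.377 to 0.746). Klf4 was higher in the selected than in the other cells of both libraries, by 1.54 (1.30 to 1.81) and 1.63 (1.18 to 2.20), and Klf2 had ratios of 1.45 and 1.16. In the 12 mutant cells with 2 or more UMIs of the 3 genes, Klf2 had 4 UMIs or 27.3 CPM, against 671 CPM in the 18 such control cells. These sets are not alike, since Runx1 was in 6 of the 12 mutant and 17 of the 18 control cells. Gfi1 was in 7 and 4 of them, and Hlf in 8 and 6. Adamts1, a secreted protease, was higher in the selected control cells at 48.1 against 28.7 CPM (1.67, 1.33 to 2.08) and had a ratio of 0.791 in the mutant, and Edn1, the peptide endothelin, had ratios of 1.64 and 1.30.

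Replication genes were lower in the mutant library in both kinds of cell. Of 21 S-phase genes, 14 were lower and none higher (median -0.85, against -0.81 in the other cells), and Rrm2, a subunit of ribonucleotide reductase, was at 22.3 against 148 CPM (0.151, 0.0941 to 0.231). Of 21 genes of G2 and mitosis, 6 were lower and none higher (-0.41, against -0.07 in the other cells), a share near the 27.3% of all genes and thus no result about this list. Inside the mutant library, 19 of these 21 were below a ratio of 1 in the selected cells, with a median of -0.26 against -0.0023 over all genes. Past 1.5-fold were 3 of them, near the 10.6% of all genes, so this count is no result about the list. Their summed level was 4303 against 4524 CPM, but the median cell was at 3199 against 2879 CPM. The 3 included Plk1, a mitotic kinase (0.522, 0.302 to 0.844, with a log2 ratio of 0.19 after thinning), and Nusap1, a spindle protein (0.623, 0.450 to 0.842). In the control 14 of 21 were above 1 and none past 1.5-fold, with a median of 0.034 that became -0.085 under TMM scaling.

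The hemogenic factors were lower as a list, 8 of 18 lower and 1 higher with a median of -0.46, against -0.27 over 16 factors in the other endothelial cells. Lmo2 was at 0.357 of its control level (0.292 to 0.434; 0.575 in the other cells) and Lyl1, its network partner, at 0.438 (0.268 to 0.691; 0.775 in the other cells). The one factor higher in the mutant cells was Hhex, a homeobox factor of endothelium and blood progenitors (1.65, 1.31 to 2.08). The progenitor surface list had 6 higher and 2 lower of 12 with a median of 0.55, which was 0.71 under TMM scaling and -0.098 with the reduced totals. Procr had an interval that includes 1 between the selected cells of the libraries (1.17, 0.734 to 1.84), while it was lower in the other mutant cells (0.602, 0.497 to 0.724). Ikzf2 had a ratio of 1.21 (0.648 to 2.21) and Bcl11a of 0.641 (0.330 to 1.18), both with intervals that include 1. Adgrg1 was at 1.82 (1.01 to 3.29), and it was also higher in the other mutant cells, at 4.8 against 2.3 CPM.

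**Figure D5:**
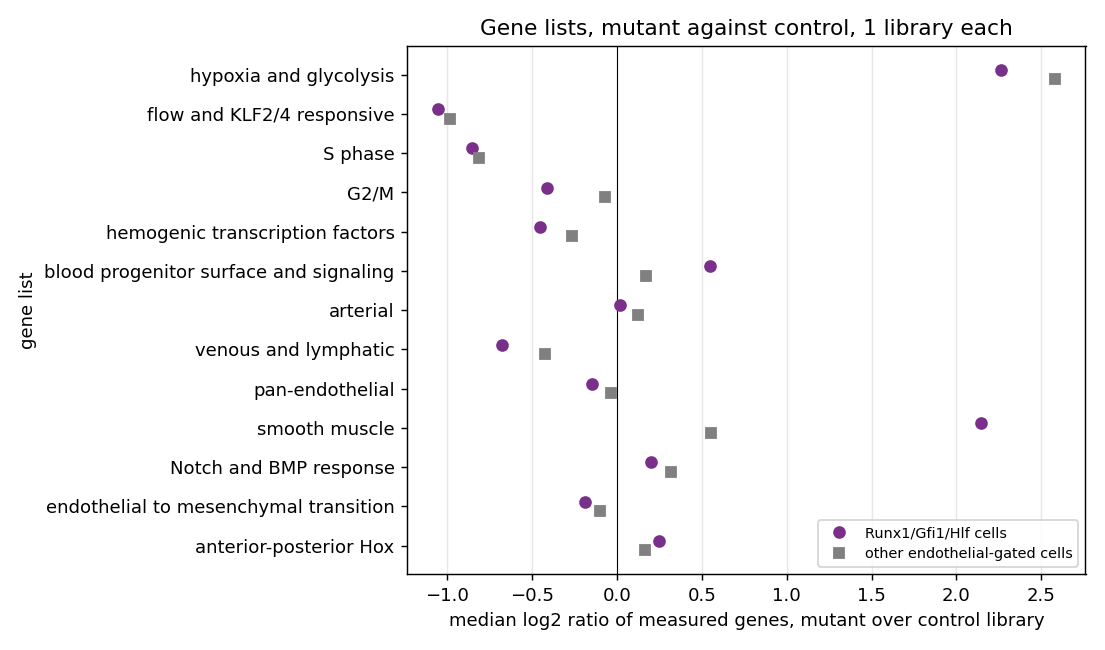
Median log2 ratio of mutant over control library for 13 gene lists, in Runx1/Gfi1/Hlf cells (purple circles) and other endothelial cells (gray squares). Both kinds of cell have hypoxia genes at 2.26 and 2.58 and flow genes at -1.06 and -0.98, while the smooth muscle list is at 2.15 in the selected cells and 0.56 in the others.

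The smooth muscle list was higher in the mutant selected cells with a median of 2.15, which was -0.11 without the cells of the smooth muscle gate. The venous and lymphatic genes had a median of -0.68 (6 of 11 lower) and -0.43 in the other cells, with Aplnr, the apelin receptor of veins, at 32.0 against 92.4 CPM. The arterial, pan-endothelial, inflammatory, Notch and BMP, endothelial to mesenchymal and Hox lists had medians between -0.19 and 0.25, and the pan-endothelial one, -0.15, became 0.015 under TMM scaling. Hoxa9, a homeobox gene of the trunk and of blood stem cells, was higher in the selected than in the other cells of both libraries, at 32.6 against 18.0 CPM (1.82, 1.37 to 2.37) and 25.2 against 13.9 CPM (1.81, 1.16 to 2.71). Among mutant cells without any of the 6 blood genes its log2 ratio was -0.0050.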

How the data were processed

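The authors deposited raw UMI counts of 27998 genes in 9917 cells from 1 control and 1 mutant library, with tables of cells and genes. Per the submitters' processing notes, Cell Ranger and genome build mm10 were used; for the version, the annotation and the filter on cells the sources used here give nothing. The deposited mitochondrial fraction served 1 alternative, and the deposited size factor, a ratio, was not used. Cells were put in libraries by the genotype word of the cell table. Doublets and free RNA were not removed.

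UMI counts were summed per kind of cell and divided by their total (1807930 and 1031680 UMIs in the selected cells of the control and mutant, 52708442 and 18291057 in the other endothelial cells) to give CPM. Intervals at 95% were exact: Poisson for levels, conditional binomial for ratios and Clopper-Pearson for shares (Python 3.11.15, numpy 2.4.6, scipy 1.17.1, pandas 2.3.3, matplotlib 3.10.9). Intervals of a ratio of ratios use the Poisson variances of its counts on the log scale. All cover counting error only, and a count of 0 allows 3 UMIs. A log2 ratio had 0.5 UMI added to both sums. Shares were also taken after thinning each cell to 2500 UMIs. Ratio intervals were tested on simulated Poisson counts of 4883 genes for the control comparison, where they held the true ratio for 95.5% of unchanged genes.

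Named genes were the 11 of the rule, 22 hemogenic transcription factors, per library the 12 highest and 12 lowest by the interval bound nearest to 1 (mean of at least 20 CPM; leaving out sex-linked, predicted, globin, ribosomal protein and mitochondrial genes), 8 each way by the ratio of ratios, and up to 4 per list. Map3k3, Kit, Cd34, Klf4, Krt8, Rac2 and Gja5 were named besides, after their values had been seen. The selected cells and the 21 gene lists were chosen with earlier results of these data known, and the set of 18 low-background genes was made after seeing the data. Alternatives were stricter or other rules for the selected cells, depth weighting, thinning, 3 other scalings (TMM from edgeR 4.0.16, median-of-ratios, reduced totals) and other level bounds; leaving out cells with over 10% mitochondrial UMIs was chosen after seeing the data. Positions are from GENCODE vM21 on GRCm38, the build that mm10 names.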

Additional observations from a re-analysis of the deposited data

Results flagged for a closer look

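For 3 genes the selected cells lay on opposite sides of the other endothelial cells in the 2 libraries, past 1.5-fold each way. Ddit4, a stress-induced inhibitor of growth signaling, had a ratio of 1.97 in the mutant (101.8 against 51.8 CPM) and 0.645 in the control (4.98 against 7.72 CPM, 9 UMIs), with a ratio of ratios of 2.91 (1.48 to 5.70). Klhl24, an adaptor of a ubiquitin ligase, had 1.73 in the mutant (55.3 against 32.0 CPM) and 0.511 in the control (7.19 against 14.1 CPM), with a ratio of ratios of 3.28 (1.80 to 5.99). Tpm2, a tropomyosin of muscle, had 1.71 in the mutant (61.1 against 35.8 CPM) and 0.411 in the control (6.08 against 14.8 CPM), with a ratio of ratios of 4.0 (2.12 to 7.57). In the mutant cells with 2 or more UMIs of the 3 genes, the log2 ratio of Tpm2 was -0.22. The difference between the libraries was not tested, since each group is 1 library.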

How the results depend on the processing

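No paired analysis was possible because each group has 1 library, and none could be left out. The number of genes past 1.5-fold moved with the rule, the depth and the level bound; the cause was not tested. In the control, 43 genes were higher and 43 lower. With at least 2 UMIs of the 3 genes these became 913 and 640, with Runx1 alone 80 and 110, after thinning 332 and 365, with reduced totals 66 and 87, with TMM scaling 20 and 102, from 50 CPM 10 and 7, and from 5 CPM 212 and 346. With depth weighting 20 were lower, without cells over 10% mitochondrial UMIs (chosen after seeing the data) 25. With only 1 UMI required 1711 were higher and 1166 lower. In the mutant, 188 and 200 became 1018 and 1127 with at least 2 UMIs, 621 and 496 after thinning, 291 and 370 with reduced totals, 64 and 50 from 50 CPM, 628 and 892 from 5 CPM, and 1961 and 1690 with 1 UMI required. Between the libraries, 704 and 1203 became 300 and 601 from 50 CPM, 1528 and 2313 from 5 CPM, and 2658 and 3135 with 1 UMI required; reduced totals gave 1181 higher and at least 2 UMIs gave 1913 lower. The share of selected cells was 0.305% and 0.438% with at least 2 UMIs, 1.51% and 1.97% with Runx1 alone, and 1.07% and 1.79% with the rule applied to thinned cells.

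Among list medians past 1.5-fold, 3 changed sign: epithelium in the control without smooth muscle gated cells (-0.16), erythroid between libraries with at least 2 UMIs (1.5), and smooth muscle between libraries without gated cells (-0.11). Smaller list medians changed sign 100 times, and smaller ratios of single genes 114 times. Of single genes past 1.5-fold, the log2 ratio changed sign with at least 2 UMIs for AY036118 (0.39), Get4 (0.092), Il6st (0.22) and Pxdn (0.024) in the control and for Lyve1 (-1.60), Tpm2 (-0.22) and Vav3 (0.17) in the mutant. After thinning it did so for Il6st (0.21) and Trp53i11 (0.13) in the control and for Alox5ap (-1.04), Lcp1 (0.066), Notch4 (0.026), Plk1 (0.19) and Slc7a5 (0.11) in the mutant, and without any blood gene for Hoxa9 (-0.0050). Other list medians stayed within their range 635 times and moved 74 times, and single genes 2195 and 408 times. The small number of selected cells limits all values, since 1 UMI in the mutant cells is near 1 CPM.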
